A study of Sus scrofa with 9 samples.

Results

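The names miR-1246, miR-11972, miR-10001, miR-11980 and miR-12023 form a small set of small RNA names that were listed almost only in the sperm libraries of a porcine small RNA sequencing series. The set was chosen by measured values, namely a high level in sperm beside little or nothing in oocytes and embryos, so the contrast with sperm is given as a description, and nothing is read from its test calls. Every name in the deposited table that held 1 of these 5 numbers was taken, whatever its species prefix, arm or end variant. This gave 22 of 1313 names, in 28 of 1420 table rows, of which 10 names belonged to miR-1246, 6 to miR-11972, 4 to miR-12023, and 1 each to miR-10001 and miR-11980.

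The series compared the small RNAs of 3 groups with 3 libraries each, all labelled as without treatment. MII oocytes, the mature unfertilized egg, came from Long White gilts after in vitro maturation, and the cumulus cells around them were removed. Pronuclear (PN) embryos were made by in vitro fertilization of such oocytes with semen of Landrace boars, whereas the sperm libraries came from purified fresh sperm of Large White boars, so the sperm sequenced and the sperm used for fertilization were of different breeds. Oocytes and embryos were pooled in large numbers for RNA. No treatment separated the groups, but the breed and sex of the source animals differed between them. Breed, sex and cell type therefore cannot be told apart.

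A microRNA is a short RNA cut from a hairpin precursor that guides silencing complexes to messenger RNAs. It pairs with them mainly through a stretch close to its 5′ end called the seed, so a shift of the 5′ end changes which bases form the seed. Copies of one microRNA that differ at their ends are called isomiRs, and for most microRNAs the 5′ end varies less than the 3′ end. Mature sperm is nearly silent in transcription and carries small RNAs of several classes, among them microRNAs and fragments of transfer, ribosomal and small nuclear RNA. Human miR-1246 is known to match a stretch of the U2 small nuclear RNA, which is part of the splicing machinery, so reads under this name can also come from that RNA. No role is given here for the other names.

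The prefix of a name is the species of the reference microRNA, with hsa for human, bta for cattle and pal for a bat. No member carried the pig prefix ssc, which 343 of all 1313 names (26.1%) carried. The suffixes were read from the names themselves, since no source used here defines them. In this reading, L-1 is a left (5′) end with 1 base fewer than the reference, L+1 a left end with 1 base more, R the same for the right (3′) end, and 1ss17AT a single base change from A to T at position 17. Sequences were not analysed here, and whether the members match other noncoding RNAs was not tested. None of the 315 pig microRNA genes in RefSeq for Sscrofa11.1 matched a member by name.

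The libraries differed in depth, with totals of 289183 to 381674 counts for MII oocytes, 422630 to 771001 for PN embryos and 1640492 to 2455102 for sperm. Levels are in CPM, counts scaled to a library total of 1000000. Values below 5 reads were almost missing from the table: among 4043 values of rows whose counts no other row repeated, 237 equalled 5, only 28 were whole and below 5, and none of any row equalled 1. A name absent from a library was therefore treated as lying below a floor of 5 reads, which equals 13.1 to 17.3 CPM in MII oocytes, 6.49 to 11.8 CPM in PN embryos and 2.04 to 3.05 CPM in sperm. Among sperm markers, the names of miR-34b, miR-34c and miR-449a summed to between 150757 and 152999 CPM in sperm and to between 2036 and 2455 CPM in the other libraries. The early embryo names of miR-371 and miR-302 summed to 0 in sperm and to between 1089 and 1286 CPM elsewhere, with miR-302 at 0 in MII oocytes. Of the markers of other cells, the ovarian follicle names went opposite ways, with miR-202 at 591 to 1142 CPM in oocytes and embryos and 10.2 to 23.7 CPM in sperm, and miR-383 at 76.9 to 131 CPM and 638 to 731 CPM. The red blood cell names (miR-451, miR-144) summed to 83.0 to 157 CPM in MII oocytes, 641 to 690 CPM in PN embryos and 44.4 to 110 CPM in sperm. The white blood cell names (miR-223, miR-142, miR-150) reached 108 to 120 CPM in sperm and at most 60.2 CPM elsewhere. The epithelial names (miR-200, miR-205) held 453212 to 494521 CPM in oocytes and embryos, nearly all of it miR-205, and 6389 to 6928 CPM in sperm, nearly all of it miR-200. The part of such cells in the members' levels was not tested. Sperm library 1 stood apart from the other sperm libraries, with a chi-square per degree of freedom of 12.1 and 12.7 against them and 2.39 between them, so sperm means are also given without it. The shallower MII oocyte libraries also differed, with 10.5 between libraries 1 and 3, 6.12 between 2 and 3, and 4.09 between 1 and 2. The PN embryo libraries gave 2.20 to 2.98.

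Summed over all members, sperm held 11775, 14484 and 14009 CPM, a mean of 13423 ± 1447 CPM (SD, n = 3), or 14246 CPM without library 1. This was 1.34% ± 0.145 of all sperm counts. The 3 MII oocyte libraries held 47.2, 16.7 and 51.9 CPM and the 3 PN embryo libraries 16.6, 0 and 17.5 CPM, so no oocyte or embryo library came near the sperm range.

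miR-1246 made up most of this sum. Its names together held 9250, 11095 and 11107 CPM in sperm, a mean of 10484 ± 1069 CPM (SD, n = 3). Outside sperm they were listed in 1 MII oocyte library at 13.1 CPM and in 1 PN embryo library at 9.73 CPM. miR-10001, listed under the single name pal-miR-10001-5p_1ss2AT, held 1919, 2571 and 2211 CPM in sperm, a mean of 2233 ± 326 CPM. It was listed at 15.7 CPM in MII library 1 and at 51.9 CPM in MII library 3, and in no PN embryo library. The 6 names of miR-11972 held 453, 638 and 531 CPM in sperm, a mean of 541 ± 93.0 CPM, and were listed elsewhere only in PN library 1, at 16.6 CPM.

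The remaining names were scarcer. miR-11980, listed under the single name bta-miR-11980_R-2_1ss4CG, held 75.6, 112 and 83.5 CPM in sperm, a mean of 90.3 ± 19.1 CPM. It was also listed at 18.3 and 16.7 CPM in MII libraries 1 and 2 and at 7.78 CPM in PN library 3, more libraries outside sperm than any other member. The 4 names of miR-12023 held 77.1, 68.7 and 76.4 CPM in sperm, a mean of 74.0 ± 4.69 CPM, and were listed nowhere else. The sperm means of miR-11980 and miR-12023 lay within the spread of the former, so their order is not resolved, whereas the ranges of miR-1246, miR-10001 and miR-11972 did not overlap with each other or with those of the scarcer names.

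**Figure D1:**
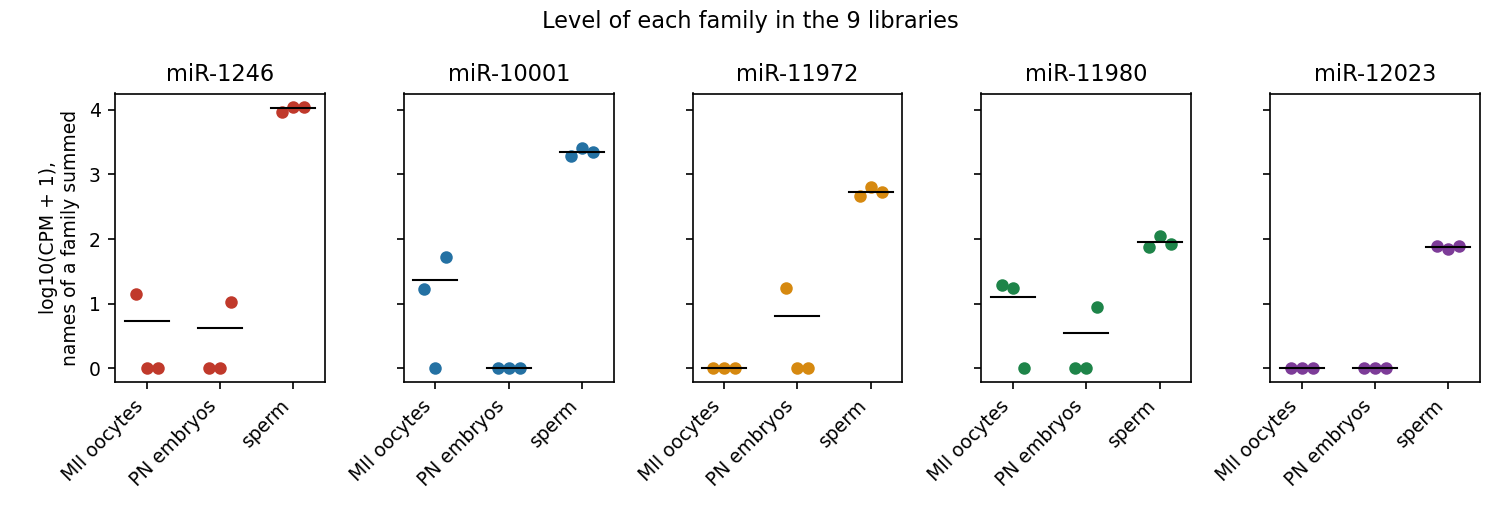
Level of each of the 5 families in each of the 9 libraries, with the names of a family summed, as log10(CPM + 1); each point is 1 library, the line is the mean CPM of a group, and groups are MII oocytes, PN embryos and sperm. The sperm libraries lie above all others in every family, from 68.7 CPM for miR-12023 to 11107 CPM for miR-1246.

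Of the 22 members, 21 were listed in all 3 sperm libraries and 16 in no MII oocyte or PN embryo library. A few names carried most of the reads, and 4 members reached 1000 CPM in sperm. The name hsa-miR-1246_L-1_1ss17AT led with 4229, 5254 and 5232 CPM, a mean of 4905 ± 586 CPM (SD, n = 3), and stood 36th among all names in sperm. It was listed in no other library. The unshifted name hsa-miR-1246_1ss17AT followed with 3415, 3981 and 4007 CPM, a mean of 3801 ± 334 CPM, and had 5 reads in PN library 3. The name with a longer left end, hsa-miR-1246_L+1_1ss18AT, held 1357, 1571 and 1568 CPM, a mean of 1499 ± 122 CPM, and had a fractional 2.5 reads in PN library 3. Its sperm mean was at least 95.5-fold above the MII floor.

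These abundant members differed from other abundant sperm names in where else they were listed. Of 85 other names with at least 1000 CPM in sperm, 81 were listed in every PN embryo library and 78 in every MII oocyte library, and each of the 85 was listed in at least 1 library outside sperm. Of the 4 members this abundant, none was listed in every PN embryo library. All but hsa-miR-1246_L-1_1ss17AT were listed in at least 1 library outside sperm. Since the members were chosen for this pattern, the contrast is a description.

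The lower part of the set was close to the floor of the shallower libraries. The bta-miR-11972 names reached 211 ± 23.4 CPM for L-2_1ss20TC, 190 ± 30.0 CPM for R-2_1ss1GA, 70.1 ± 20.4 CPM for L-1_1ss20TC and 33.2 ± 8.93 CPM for L-3_1ss20TC, with the 2 names shortened at both ends at 24.5 ± 8.15 and 11.2 ± 3.83 CPM. The precursor-based names bta-mir-1246-p3_1ss18AT and bta-mir-1246-p3_1ss20AT reached 166 ± 20.1 and 78.5 ± 9.61 CPM. The other names of that kind lay between 4.24 and 10.5 CPM. Among the bta-miR-12023 names, R+3_2 led with 37.7 ± 4.95 CPM, and the others lay between 7.20 and 18.8 CPM.

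For 7 of the 21 names listed in sperm, the sperm mean lay below the mean MII floor of 15.7 CPM. Absence from the oocyte libraries was not informative for these, because the same level would not have been listed there. Only 14 members would have reached 5 reads at the depth of the smallest library had their level been the same as in sperm. The difference in depth between sperm and the other groups and the difference in cell type cannot be told apart for the scarce names. In bulk libraries, fewer cells holding an RNA and less of it per cell likewise cannot be told apart.

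**Figure D2:**
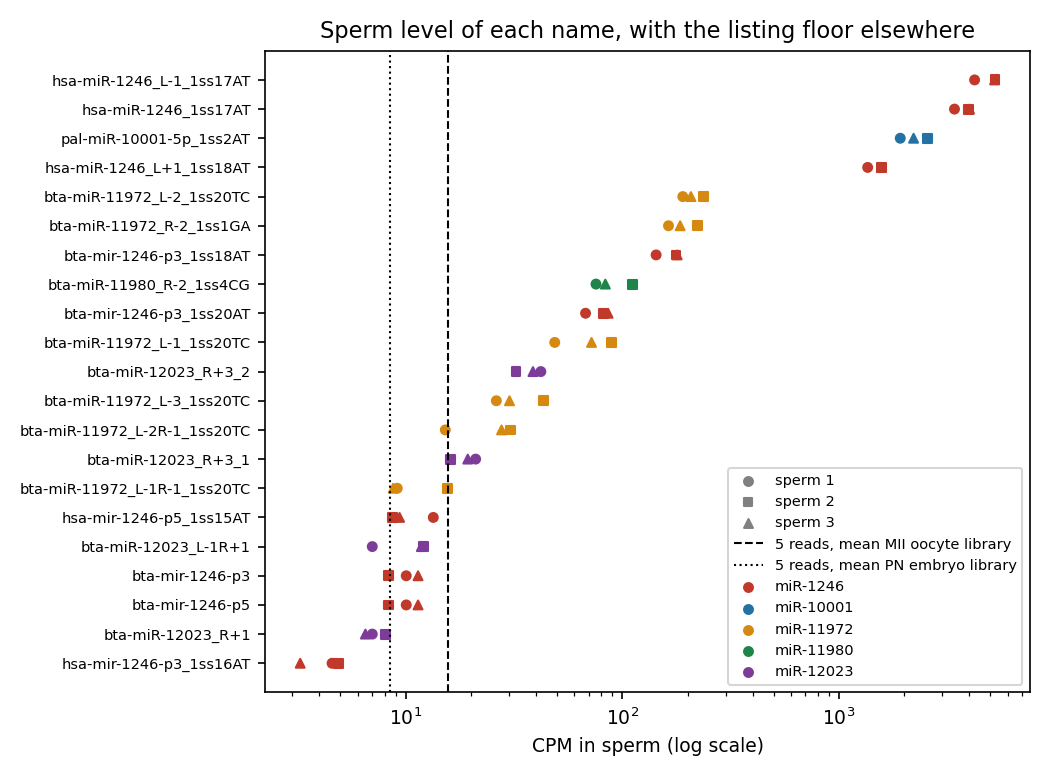
Level in CPM (log scale) of the 21 member names listed in sperm; circles, squares and triangles are sperm libraries 1, 2 and 3, colours are families, and the lines mark the CPM that 5 reads are worth in an average MII oocyte (dashed) and PN embryo (dotted) library. The abundant miR-1246 and miR-10001 names lie far to the right of both lines, and 7 names average below the dashed line.

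The member outside sperm was bta-miR-1246_L+1R+3. It had 5 reads in MII library 1, or 13.1 CPM, and none in any other library. Its counts were identical to those of efu-mir-9277-p5_1ss2CG, a name singled out after its values were seen, so the 2 names may share the same reads.

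In sperm, the members varied a little more between libraries than names in general. The coefficient of variation had a median of 14.6% over the 17 members of at least 10 CPM, against 10.6% over all 435 names of that level. Library 1 was the lowest of the 3 for 13 of these 17 members (76.5%) and for 242 of the 435 names (55.6%). The miR-1246, miR-10001 and miR-11972 means were 11101, 2391 and 584 CPM without library 1. The part of that library's low values in these spreads was not tested. The 17 members were not matched in level to the 435 names, and counting error alone gives scarce names a larger spread. Several of the 17 are variants of the same reference, so they are not independent of each other.

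The end variants of miR-1246 kept close proportions across the sperm libraries. Within this family, the name shortened by 1 base at the left end held 45.7%, 47.4% and 47.1% of the counts in sperm libraries 1, 2 and 3, a mean of 46.7% ± 0.884 (SD, n = 3). The name with the reference left end held 36.3% ± 0.553, the name lengthened by 1 base 14.3% ± 0.310, and the precursor-based p5 and p3 names 2.67% ± 0.0548. The reference left end was thus not the most frequent one in any sperm library. The shortened and the unshifted name each summed 2 rows, whereas the lengthened name had 1 row with fractional values. Part of its reads may be counted under another name, so its share may be too low and the other shares too high. This was not tested.

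Ratios between the 3 hsa-miR-1246 names varied less between libraries than their levels. The shortened name exceeded the unshifted one by ratios of 1.24, 1.32 and 1.31 in the 3 libraries, a mean of 1.29 ± 0.044. The lengthened name stood to the unshifted one at 0.397, 0.395 and 0.391, a mean of 0.394 ± 0.0031, which may be too low if its reads were divided with another name. Of the counts under the shortened and the unshifted name, the shortened one took 55.3% of 12540 in library 1 (95% Wilson interval 54.4 to 56.2), 56.9% of 16008 in library 2 (56.1 to 57.7) and 56.6% of 22682 in library 3 (56.0 to 57.3). These intervals cover counting error only, and all of them lay above an even split. The 2 precursor-based names with marks at positions 18 and 20 stood at 2.12, 2.16 and 2.09.

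miR-11972 was spread over more left ends than miR-1246. The left end 2 bases short held 43.8% ± 1.79 (SD, n = 3), the reference left end 35.3% ± 0.697, the end 1 base short 14.8% ± 1.87 and the end 3 bases short 6.08% ± 0.608. The right end matched the reference in 58.2% of the counts, was 2 bases short in 35.3% and 1 base short in 6.49%. All the counts with the reference left end were under the single name with a right end 2 bases short.

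miR-12023 differed from both in keeping its reference left end in 90.9%, 82.4% and 84.5% of the counts, a mean of 85.9% ± 4.45, with the remaining 14.1% 1 base short. Its right end was longer than the reference throughout, by 3 bases in 76.1% and by 1 base in 23.9% of the counts. The rows of bta-miR-12023_R+3_1 and bta-miR-12023_R+3_2, the names longer by 3 bases, had identical values, so the same reads may be counted more than once. In that case the shares of the 3-base end and of the reference left end are too high, and that of the shortened left end too low. This was not tested. miR-10001 and miR-11980 were each listed with the reference left end alone.

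**Figure D3:**
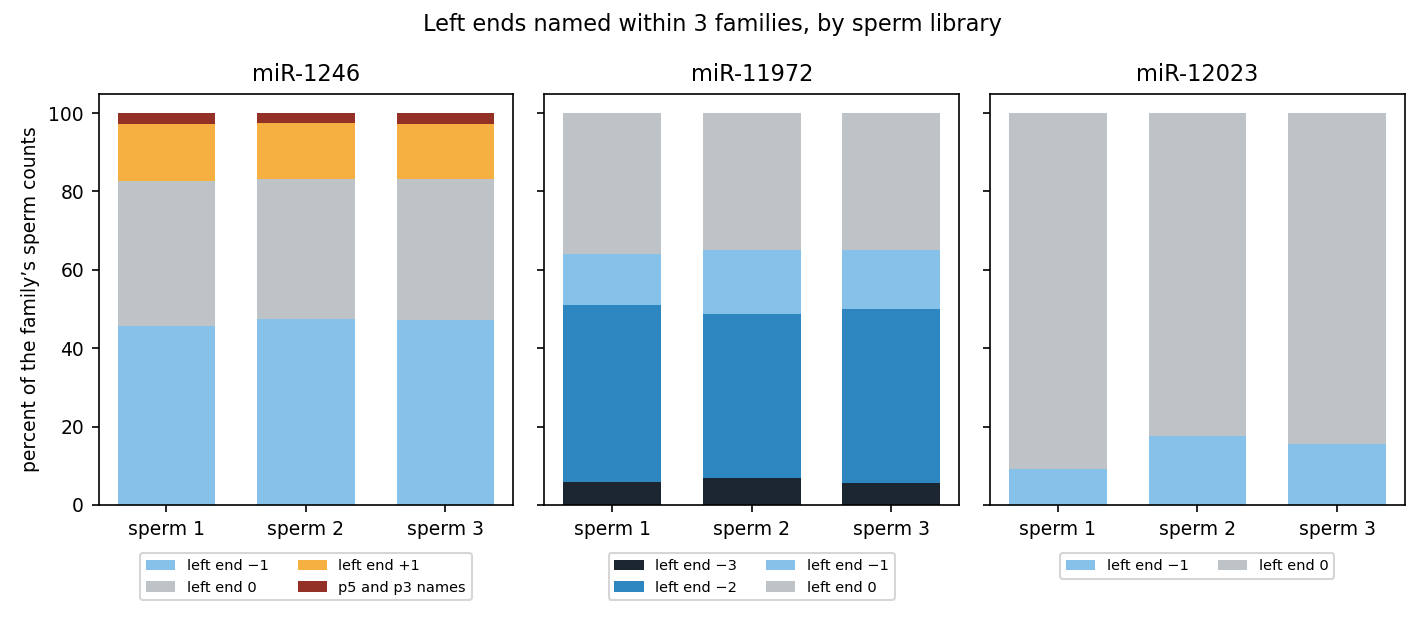
Percent of each family's sperm counts by the left end its names give, for miR-1246, miR-11972 and miR-12023 in sperm libraries 1, 2 and 3; colours are the shift of the left end in bases, and miR-1246 has a further class of p5 and p3 names without a shift. Bars for miR-1246 and miR-11972 look alike in the 3 libraries, with the −1 end at 45.7% to 47.4% in miR-1246 and the −2 end at 41.9% to 45.4% in miR-11972.

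Few other references were listed with more than 1 left end. Of 269 reference names with at least 100 sperm reads, 13 (4.83%) were listed with more than 1 left end, and 3 of the 5 member references were among them. For pig references this held for 2 of 176, and for the references of other species that were not members for 8 of 88. The leading left end held 43.7% of the counts of bta-miR-11972, the lowest share of all 269, and 48.1% of those of hsa-miR-1246, the third lowest after the 47.9% of mmu-miR-5126, a name singled out after its values were seen. bta-miR-12023 stood 10th with 85.8%, a share that may be too high because some of its rows had identical values. Most of the 269 references were listed under 1 name only, also abundant ones, so their leading left end is 100% by construction. The comparison counts listed names only, so left ends under 5 reads in a library are missing from it. It describes how names were listed, and how uniform the left ends of other microRNAs were was not tested.

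**Figure D4:**
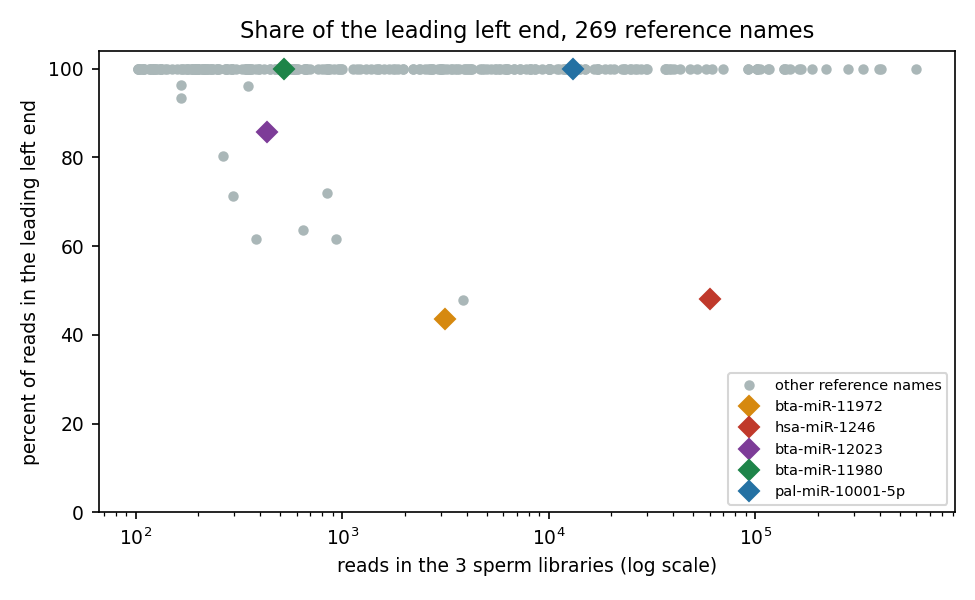
Share of sperm counts held by the leading left end of each reference name with at least 100 sperm reads (percent) against its sperm reads (log scale); each point is 1 reference name, coloured for the members and grey for the rest. Of 269 points, 13 lie below 100%, with bta-miR-11972 at 43.7% and hsa-miR-1246 at 48.1% near the bottom. A reference listed under 1 name lies at 100% by construction.

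A single base change was marked in 15 of the 22 member names (68.2%), against 217 of all 1313 names (16.5%). The 2 shares are not over like names. The 1313 include 343 with the pig prefix, which no member has, and predicted small RNAs, whose names carry no mark. All names listed in sperm for miR-11972, miR-10001 and miR-11980 carried such a mark, as did the names that held 99.8% of the miR-1246 counts, whereas none of the miR-12023 names did. Marked names held 8.64% of all sperm counts, 2.26% in MII oocytes and 3.09% in PN embryos. The members accounted for 15.4% ± 1.10 (SD, n = 3) of the counts of marked names in sperm and for 92.2% ± 0.696 of the sperm counts under the human prefix.

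The marks repeated within a family. Of the 10 miR-1246 names, 7 carried an A-to-T change, and 5 of the 6 miR-11972 names a T-to-C change at position 20. In hsa-miR-1246 the change stood at position 17 in the shortened and the unshifted name and at position 18 in the name 1 base longer at the left. In bta-miR-11972 the position was 20 with a left end 1, 2 or 3 bases short. If positions are counted from whichever of the reference and the read starts first, each of these sets names a single base of its reference. The remaining miR-11972 name carried a G-to-A change at position 1, and miR-10001 and miR-11980 carried an A-to-T change at position 2 and a C-to-G change at position 4.

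The reads of many members were divided over rows. Of 89 member values above 0, 38 (42.7%) were not whole numbers, against 1192 of 6014 (19.8%) over the table. There were 6 members listed in more than 1 row, against 105 names (8.00%) in all, and their rows were summed. bta-mir-1246-p5 and bta-mir-1246-p3 had identical counts, and bta-miR-12023_R+3_1 had the counts of each of the 2 rows of bta-miR-12023_R+3_2. Levels of such names are uncertain to the extent that reads were shared among near-identical references, and the 22 names held 20 distinct rows of counts.

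PN embryos and MII oocytes were compared to see whether the names found in sperm are also listed after fertilization. Both groups were low by the choice of the set, which limits what this comparison can show. In edgeR's quasi-likelihood test with Benjamini-Hochberg adjustment over 587 names, 14 members were tested, all of which passed the count filter through their sperm counts, and with only these 2 groups in the fit 0 members passed it. None was called higher in PN embryos and 1 was called lower. Over all tested names 11.2% were called higher and 1.70% lower, and the members' counts are not read against these shares. The same 1 member was under an unadjusted p of 0.05, and DESeq2 called none higher either. For 9 of the 14 members both groups were at 0, so no difference could be measured for them.

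The called name was pal-miR-10001-5p_1ss2AT, with counts of 6, 0 and 15 in the MII oocyte libraries and 0 in each PN embryo library. Its log2 fold change was −7.37 ± 2.27 (SE worked back from the test statistic, not estimated separately), adjusted p = 0.0486 in edgeR. The name entered the fit only through its sperm counts, and the set was chosen as low in both groups, so nothing is read from this call. Because the fitted fold depends on how a group at 0 is treated, it is no bound. Against the floor the MII mean was at least 2.65-fold higher, but most of that mean came from MII library 3, at 51.9 CPM. The call rested on few reads and 2 libraries: the adjusted p was 0.122 without MII library 3, 0.0611 without PN library 1, 0.0705 without PN library 2, 0.0582 without sperm library 1 and 0.061 without sperm library 2.

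The other tested members with reads outside sperm did not pass the test, and bta-miR-1246_L+1R+3 was not among those tested. Nothing is read from these tests either, since these members too entered the fit only through their sperm counts. Adjusted p was 0.420 for bta-miR-11972_L-2_1ss20TC, whose 7 reads were in PN library 1, 0.393 for hsa-miR-1246_1ss17AT and 0.501 for hsa-miR-1246_L+1_1ss18AT, both listed only in PN library 3, all in edgeR. The name bta-miR-11980_R-2_1ss4CG had 7, 5 and 0 counts in MII oocytes and 0, 0 and 6 in PN embryos. Its log2 fold change was −1.99 ± 1.10 (SE worked back from the test statistic), with an adjusted p of 0.242 in edgeR. Without PN library 3, the one that held its reads, the adjusted p was 0.0342. At these depths a rise in PN embryos of a few CPM would not have been detectable.

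Against sperm, the same test called all 14 tested members higher in sperm than in MII oocytes, where 42.2% of names were called higher and 40.7% lower, and all 14 higher than in PN embryos, where 38.8% were called higher and 47.4% lower. With an unlisted name taken as having no reads, every sperm library lay above every other library for 21 members. Counted the same way, 29.0% of all 1313 names showed this. For 7 of the 21 members the sperm mean lay below the mean MII floor of 15.7 CPM. Whether sperm lay above the oocyte libraries is not known for these members. The contrasts with sperm chose the set, and the 14 members entered the fit through their sperm counts. The calls were therefore fixed by the choice, and nothing is read from them.

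A further list held microRNA numbers whose sequences are known or thought to overlap ribosomal, transfer or other noncoding RNA, such as miR-1260 and miR-6236. It is given because human miR-1246 is known to match such an RNA. Of its 19 numbers 11 were found, as 84 names, of which 62 were tested with 43 distinct rows of counts. In PN embryos against MII oocytes 40 of these (64.5%) were called higher, beside 11.2% of all tested names, and 22 were not called. The median log2 fold change was 2.24 against 0.0832 over all names. Names with identical counts were each counted, so the same reads enter the counts and medians of this list more than once. Sperm against MII oocytes gave 24 higher (38.7%) and 22 lower (35.5%) with a median of 0.11, beside 42.2% and 40.7% of all tested names. Sperm against PN embryos gave 11 higher (17.7%) and 49 lower (79.0%), beside 38.8% and 47.4%. The median there was −3.06 against −0.52 over all names. The list was drawn from background knowledge, but with earlier results of these data known, so it is not independent of these levels. The difference between the list and all names was not tested, and the values do not bear on the origin of the members. Within the list, miR-6236 held 0.338% of sperm counts, 0.00183% in MII oocytes and 0.137% in PN embryos, and miR-1260 held 0.0120%, 0.474% and 0.928%.

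The names outside the set whose levels over the 9 libraries lay nearest to the leading member of each family were found by Euclidean distance on log2(CPM + 1). For hsa-miR-1246_L-1_1ss17AT they were ssc-miR-190b, at a distance of 3.44 and 3200 ± 11.1 CPM in sperm (SD, n = 3), and mml-miR-449b-3p_1ss8AG at 4.82. For pal-miR-10001-5p_1ss2AT they were ssc-miR-628-3p_1ss23GA at 7.32 and mml-miR-449b-3p_1ss8AG at 7.58. For bta-miR-11972_L-2_1ss20TC they were cfa-miR-590 at 2.50 and ssc-miR-99a-3p_R+2 at 3.12, and for bta-miR-11980_R-2_1ss4CG they were ssc-miR-17-3p_R-2 at 5.62 and ssc-miR-130b-3p_R-2 at 5.75. The closest pairs were those of bta-miR-12023_R+3_2, with eca-miR-449b_R-4_1ss10GA at 0.171 and ssc-miR-454 at 0.258, all of them listed in sperm alone. Among these neighbours, miR-449b belongs to the miR-34 and miR-449 group known from male germ cells and ciliated cells.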

How the data were processed

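Small RNA libraries of MII oocytes, PN embryos and sperm (3 libraries each) were analysed from the table of all names. Its values are estimated counts deposited by the authors, not all whole, per name and library. The submitters' processing notes name the build Sscrofa11.1, while the aligner, the caller and the microRNA reference are not given in the sources used here. There were 0 further columns of sample values. Rows of the same name were summed and counts were rounded to whole numbers for the tests. Groups came from the sample titles. Nothing says that libraries came from separate animals, so p-values measure only the spread between these libraries, which may be technical. No 2 libraries agreed within sampling noise (chi-square per degree of freedom 2.20 to 12.7).

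Names were tested in 1 model over all 9 libraries with edgeR 4.0.16 in R 4.3.3 (TMM scaling, filterByExpr with a minimum count of 10, quasi-likelihood test), and called at an adjusted p under 0.05 and a log2 fold change of at least 1 in size. DESeq2 1.42.0 was an alternative, as were other filters, scalings, thresholds, summed isomiR rows, a replicate block and leaving out each library. The code was tested on simulated data. CPM are counts per 1000000 of the library total. Named were all members, the marker names and, for the most abundant name of each family, the 2 nearest names on log2(CPM + 1) with a pseudocount of 1. Members and lists were chosen with earlier results of these data known. Depth limits precision as given with the floor of 5 reads.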

Additional observations from a re-analysis of the deposited data

How the results depend on the processing

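The number of members called in PN embryos against MII oocytes, 1 as reported, was 0 at an adjusted p under 0.01, 0 with a replicate block, 0 with isomiR rows summed, and between 0 and 2 when each library was left out in turn. With only these 2 groups in the fit no member passed the count filter and no value was had. For pal-miR-10001-5p_1ss2AT the log2 fold change ran from −7.94 to −6.06 and the adjusted p from 0.00233 to 0.122 over 18 alternatives, of which 6 did not call it, the replicate block among them. The adjusted p over the alternatives ran from 0.19 to 1 for bta-miR-11972_L-2_1ss20TC, from 0.221 to 1 for hsa-miR-1246_1ss17AT, from 0.363 to 1 for hsa-miR-1246_L+1_1ss18AT and from 0.0342 to 0.597 for bta-miR-11980_R-2_1ss4CG. No single name changed direction. The labels' replicate numbers did not pair the libraries: deviations of same-numbered PN and MII libraries had a mean correlation of −0.0350, and 0 of the libraries correlated best with their own number.

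Of 14 members called against sperm, in calls that the choice of the set fixed, 6 were called in either contrast with isomiR rows summed, since fewer names were then tested. Keeping 1 row for each repeated name lowered the members' share of sperm counts from 1.34% to 0.989% and the share of the shortened left end in miR-1246 from 46.7% to 39.9%, as this drops the second row of the divided names. Depth limits the oocyte and embryo libraries most, where 5 reads are worth up to 17.3 CPM.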
